A study of Mus musculus with 2 samples.

Results

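The genes of 10 phosphodiesterases that break down cyclic AMP were examined for binding sites of Foxp4, a transcription factor of the forkhead family. The genes were Pde3a, Pde3b, Pde4a, Pde4b, Pde4c, Pde4d, Pde7a, Pde7b, Pde8a and Pde8b. Sites were taken from the authors' list of Foxp4 peaks, and a peak belonged to the set if the list named one of the 10 genes as nearest to it or if its midpoint lay inside one of them or up to 100 kb from either end. This gave 17 of the 3317 peaks. They lay in or around 6 of the 10 genes, while 27.6% of all protein-coding genes had a peak inside or up to 100 kb away. Inside the gene itself 5 of the 10 had one, beside 5.36% of all protein-coding genes. Neither share was matched for gene length, and most protein-coding genes are under 50 kb while only 2 of the 10 are. Pde3b, Pde4a, Pde8a and Pde8b had no peak by either rule.

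The series mapped Foxp4 by chromatin immunoprecipitation and sequencing (ChIP-seq) in the stromal vascular fraction of inguinal white fat of C57BL/6 mice. It held 1 library of Foxp4-bound DNA and 1 of input DNA. The cells are the non-adipocyte mixture of the tissue, which includes the progenitors of fat cells. After 3 days at 20% serum they were turned toward beige adipocytes for 2 days (48 h) at 10% serum. That medium held 0.5 mM isobutylmethylxanthine, 5 µM troglitazone, 50 nM T3, 1 µM dexamethasone and 5 µg/ml insulin. All cells thus received the phosphodiesterase inhibitor isobutylmethylxanthine, and no library without it was compared. With 1 ChIP library there is no replicate error and no comparison of conditions. The age and number of the mice are not given in the sources used here, read depth is unknown, the input library was not analysed here, and peaks give no expression against which the cell label could be checked.

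Cyclic AMP is made by adenylyl cyclases when receptors such as the beta-adrenergic ones are active, and it activates protein kinase A, which in fat cells drives lipolysis and the thermogenic programme. Phosphodiesterases end the signal by hydrolysing it. Enzymes of the Pde3 family act on both cyclic AMP and cyclic GMP, and those of the Pde4, Pde7 and Pde8 families are specific for cyclic AMP. Isobutylmethylxanthine blocks most phosphodiesterases, with Pde8 enzymes as known exceptions, and is a standard part of adipogenic media.

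The sequence under the promoter peak of Pde4b is shown first, since it was the only promoter window of the 10 genes that a peak touched in the RefSeq table (GRCm38.p6, the assembly behind mm10). Such a window spans 250 bases before a start site to 50 after it, and the table held 16 windows for 7 of the genes, with none for Pde3a, Pde3b and Pde7a. The 250 bases before the Pde4b start site at position 102570060 of chromosome 4 are on the plus strand, chr4:102569810-102570059. Capitals mark the forkhead core TGTTTAT and the repeat TTTGTTTG, which overlap at the first of the 2 runs in capitals.
Pde4b: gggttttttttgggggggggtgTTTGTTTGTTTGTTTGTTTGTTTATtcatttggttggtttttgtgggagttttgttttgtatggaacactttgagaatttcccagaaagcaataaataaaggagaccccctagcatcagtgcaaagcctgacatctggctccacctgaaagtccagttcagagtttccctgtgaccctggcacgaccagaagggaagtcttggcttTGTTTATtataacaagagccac
The window held 5 tandem units of TTTG. As long a run stood in 41 of all 32851 windows (0.125%) and in 2 of the 65 windows wholly inside a peak, this one included. The length was set by this window, which was chosen because a peak covers it, so no result is drawn from these counts. The Pde4b window held TGTTTAT at 3 places on either strand, from -210 to -204, from -22 to -16 and, on the minus strand, from 15 to 21 relative to the start site.

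Each motif was searched as its exact letters on both strands. The 32851 windows belong to 27025 genes, and windows of the same gene can overlap, so the binomial intervals below may be too narrow. TGTTTAT stood in 4.6% of all 32851 windows and in 9.23% (exact 95% binomial interval 3.46 to 19.0) of the 65 windows that lay wholly inside a peak, an interval that includes the share of all windows. For the other forkhead core, TGTTTAC, the shares were 3.65% and 24.6% (14.8 to 36.9), and the Pde4b window did not hold it. The repeat TTTGTTTG stood in 2.61% of all windows and in 10.8% (4.44 to 20.9) of those inside peaks, the Pde4b window among them. This repeat was searched because it had been seen at other peaks of the same list, so its higher share inside peaks is no independent result. Also searched were motifs of cyclic AMP signalling, the full cyclic AMP response element TGACGTCA and its shorter form TGACG. The full element stood in 1.79% of all windows, in 7.69% (2.54 to 17) of those inside peaks and in none of the 16 of the phosphodiesterase genes. The shorter form stood in 20.8% of all windows, in 36.9% (25.3 to 49.8) of those inside peaks and in 4 of the 16, one each at Pde4a, Pde4b, Pde8a and Pde8b, and it was not in the Pde4b window under the peak. A match describes letters in a window and is not a bound site.

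**Figure D1:**
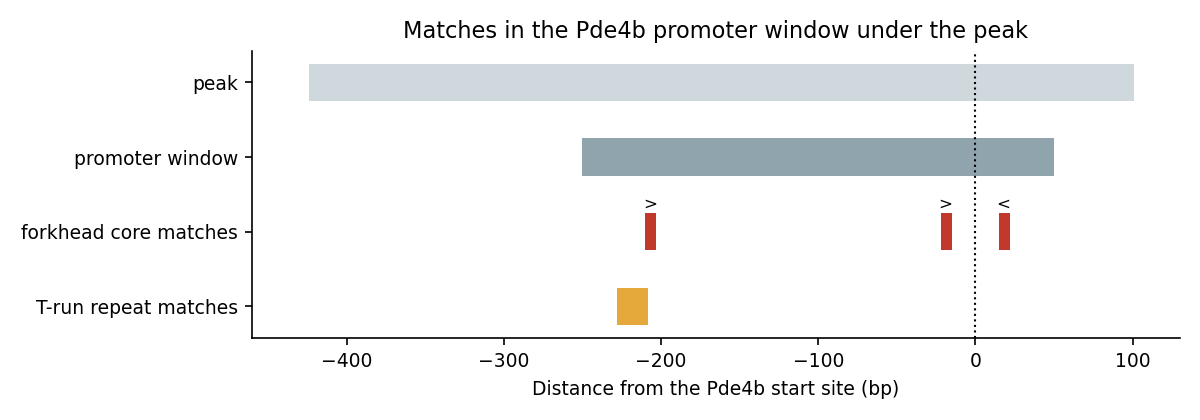
Positions of matches in the Pde4b promoter window under the peak, in bp from the start site (dotted line). Bars show the peak, the promoter window, the 3 forkhead core matches (arrows give the strand) and the 4 overlapping repeat matches, which run into the forkhead match that starts at -210.

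Forkhead cores also stood in 2 promoter windows with no peak, shown for contrast as pieces of 27 bases on the plus strand, chr8:70723922-70723948 for Pde4c and chr13:108653946-108653972 for Pde4d, with the core in capitals (TGTTTAC on the minus strand for Pde4c, TGTTTAT for Pde4d).
Pde4c: tctgtcaggtGTAAACAcattaacaag
Pde4d: tccatggcttTGTTTATgaagaaaaaa
The nearest peak midpoint was 25.3 kb from that Pde4c start site and 201 kb from that Pde4d start site.

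Among the members specific for cyclic AMP, Pde4b had both of its peaks inside the gene, which spans 520 kb (chromosome 4, 102087332 to 102607275). Pde4b is a widely expressed member of the family that rolipram inhibits. The promoter peak (102569636 to 102570160) had its midpoint at -162 bp from the start site and a score of 141, which ranked 484 among the 3317 peaks. The score is the authors' value for each peak, has no stated scale, and is used here only to rank peaks within the list, in which it ran from 13 to 2569 with a median of 65. The table held windows at 4 Pde4b start sites. Peak midpoints lay 89.4, 17.7 and 19.9 kb from the other 3, so the peak sat at 1 of the gene's alternative starts, 482.6 kb from its lower-coordinate end. The other Pde4b peak (102510768 to 102511208) lay in intron 5, 59.1 kb before the same start site, and scored 80 (rank 1237).

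Pde4d held 7 peaks, the most of the 10 genes, and the list named Pde4d for none of them. The gene encodes another cyclic AMP phosphodiesterase with many isoforms from alternative starts and is 1302 kb long (chromosome 13, 108654177 to 109955969). The list named the microRNA genes Mir582 for 3 of the 7 peaks and Mir1904 for 4. Both lie inside Pde4d and closer to the peaks than the 1 Pde4d start site with a promoter window. Its alternative starts had no window, so how far the peaks lie from those was not examined. The first peak lay 688.5 kb past the start of the gene and the last at 1257 kb, so all 7 fell between 52.9% and 96.6% of its length and none in the part before.

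The peaks of the Pde4d gene with the highest scores lay in intron 3. Their scores were 124 (109342416 to 109342855), 111 (109350459 to 109350756) and 121 (109547298 to 109547804), and the first pair was separated by 7.60 kb. The third lay on a (TTTTTG)n tandem repeat. A further peak in intron 3 (109652315 to 109652922) scored 38 and one in intron 7 (109822529 to 109823407), on GA-rich low-complexity sequence, scored 43. The last pair stood 7.90 kb apart beside Mir1904. The first of these (109902804 to 109903187) scored 30 and is annotated as a promoter peak of Mir1904, at -814 bp from its start site, while the other (109911092 to 109911411) scored 60 and lay in intron 8 on a (CAA)n repeat. All 4 peaks nearest to Mir1904 thus scored below the list's median of 65, and all 3 nearest to Mir582 scored above it.

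The mature microRNAs that gave these peaks their names are shown because the names hide the host gene. The seed (bases 2 to 8) is in capitals, and the sequences are those of RefSeq (GRCm38.p6).
mmu-miR-582-5p: aUACAGUUguucaaccaguuac
mmu-miR-582-3p: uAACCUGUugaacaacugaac
mmu-miR-1904: gUUCUGCUccucuggagggagg
The hairpins lie on the plus strand of chromosome 13, Mir582 from 109324744 to 109324824 and Mir1904 from 109903809 to 109903888. No 2 of the 3 shared a seed. The peak closest to Mir582 was 17.9 kb past its start, so only Mir1904 had a peak within 1 kb.

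A count of 7 peak midpoints inside a gene was the highest among the 21883 protein-coding genes, and 1 other gene, Arhgap24 (698 kb), reached it. Of the 59 protein-coding genes of 1 Mb or more, 41 held no peak, and the next highest counts were 5 in Lrmda and 4 in Prkg1, the gene of a cyclic GMP-dependent kinase. Arhgap24, Lrmda and Prkg1 were singled out after their values were seen. Per Mb of gene body Pde4d held 5.38 peaks (exact 95% Poisson interval 2.16 to 11.1, counting error only), below the 10 of Arhgap24 and near the 4.82 of Lrmda, while Prkg1 held 3.33.

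**Figure D2:**
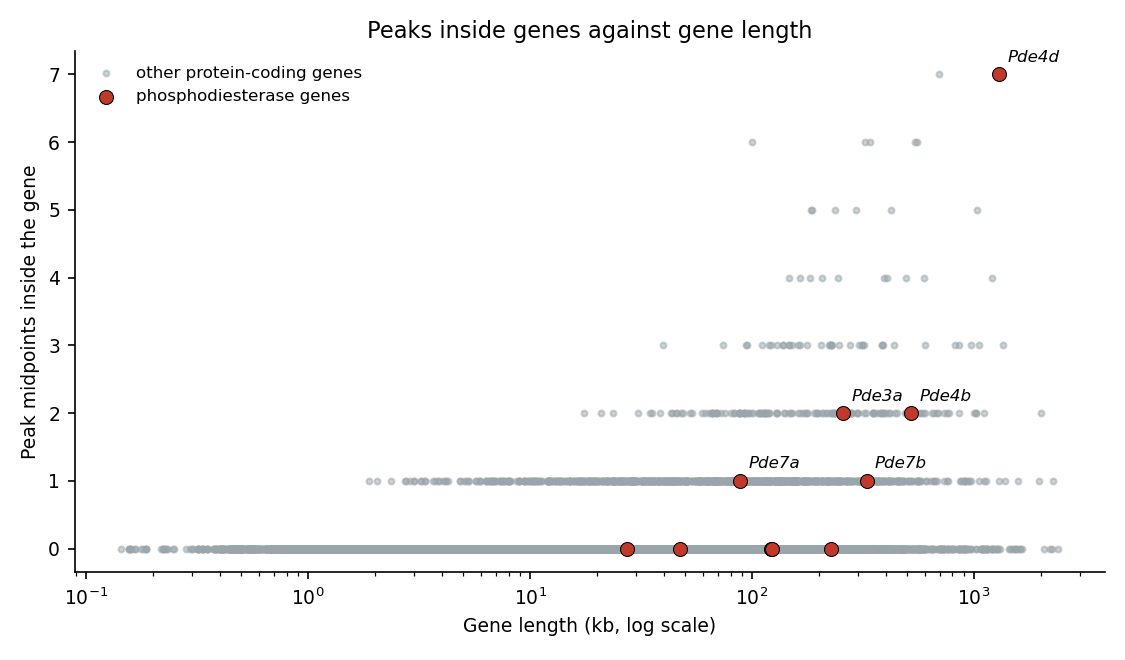
Number of peak midpoints inside each of the 21883 protein-coding genes (vertical axis) against gene length in kb (log axis), each point 1 gene, with the 10 phosphodiesterase genes in red. Pde4d stands at 7 peaks and 1302 kb, Pde3a and Pde4b at 2, Pde7a and Pde7b at 1 and the other 5 genes at 0.

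The remaining Pde4 genes had no peak of their own. Pde4c (27.4 kb, chromosome 8, 70723835 to 70751186) had 2 peaks within 100 kb, and both were named for other genes in a stretch with 14 other protein-coding genes. The closer one (70698592 to 70699027, score 83) lay 25 kb from Pde4c, 1.07 kb past the start site of Jund, the gene of an AP-1 transcription factor, where it is annotated to the 5' UTR. The other (70625698 to 70626081, score 65) was intergenic, on an ERVK element, and nearest to Gdf15, a stress-induced secreted factor of the TGF-beta superfamily. It lay 97.9 kb from Pde4c, just inside the limit of 100 kb. Just outside it was a peak 111 kb from Pde4a (score 66), named for Slc44a2. Pde4a (47.5 kb, chromosome 9, 21165700 to 21213248) therefore had no peak in its window, which 11 other protein-coding genes share.

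Pde7b carried the highest score of the set. Both Pde7 enzymes are specific for cyclic AMP and are not inhibited by rolipram. The Pde7b peak in intron 1 (chromosome 10, 20673451 to 20673961) scored 257, rank 180, and lay on a (CAA)n repeat, which reads TTG on the other strand, 51.4 kb past the start site. The other Pde7b peak (20725076 to 20725456) lay at the promoter, with its midpoint at -188 bp from the start site, and scored 19 (rank 3186), the lowest of the set. The Pde7b window of the promoter table belongs to another start site, 125 kb from the nearest midpoint, so no sequence is shown here. Thus the promoter site and the intronic site of 1 gene stood near opposite ends of the list's ranking. Pde7a (88.2 kb) had 1 peak (chromosome 3, 19246610 to 19247162, score 69) in intron 3 on AT-rich low-complexity sequence, 18.1 kb past the nearest start site.

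The Pde8 genes, which encode cyclic AMP enzymes of high affinity, had no peak in reach. The nearest midpoints were 385 kb from Pde8a (chromosome 7, 81213265 to 81334535), a peak named for Iqgap1 with a score of 51, and 385 kb from Pde8b (chromosome 13, 95024105 to 95250401), a peak named for F2r with a score of 114. Of all protein-coding genes, 59.1% had a peak nearer than Pde8a did and 59.2% nearer than Pde8b.

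The Pde3 genes differed between them. Pde3b is the main phosphodiesterase through which insulin restrains lipolysis in fat cells. It had no peak in the gene (chromosome 7, 114415222 to 114537938, 123 kb) or in the 100 kb on either side. The nearest midpoint was 266 kb away, named for Rras2, with a score of 149, and 48.9% of protein-coding genes had a nearer peak. Pde3a, known best from heart, vessels and platelets, had 2 peaks in intron 1 (chromosome 6, 141333029 to 141333611, score 29, and 141347917 to 141348283, score 70). They lay 14.3 kb apart on either side of the start site of Gm10400, for which both were named, at -7.23 kb and 7.55 kb, and the higher one lay on an LTR element. The 1 peak that the list names for Pde3a (140972172 to 140972531, score 25) was intergenic, on a (CAA)n repeat 277 kb before the gene, outside the window of 100 kb.

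**Figure D3:**
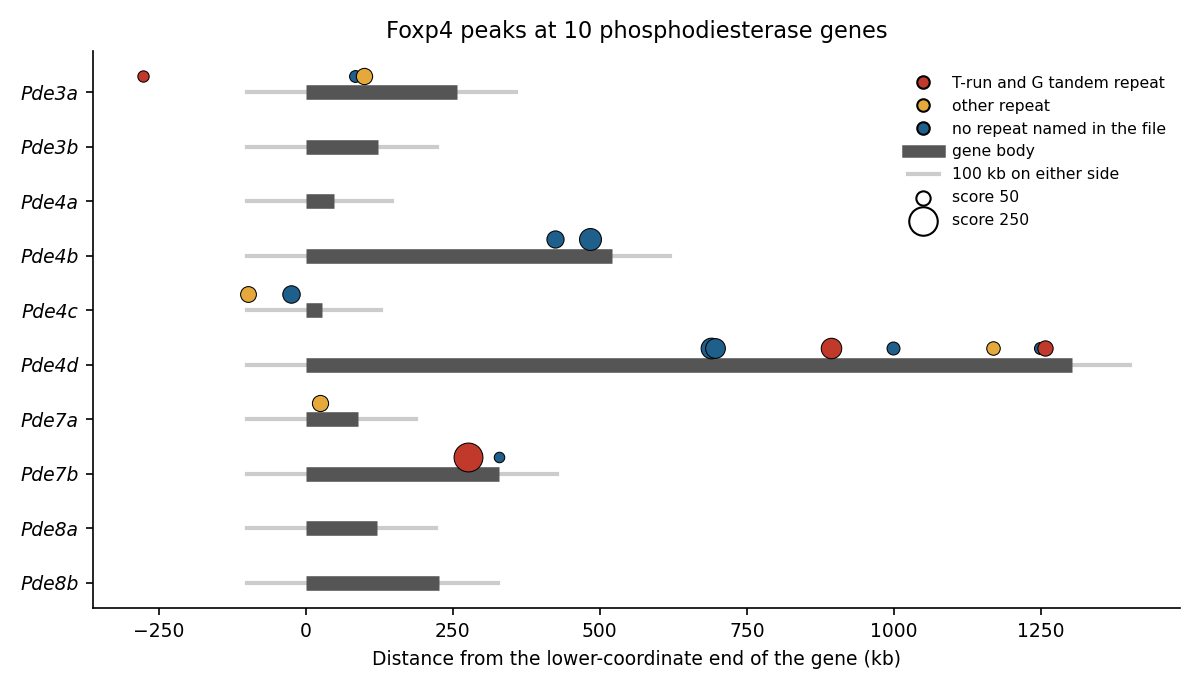
Map of the 17 peaks at the 10 genes, in kb from the lower-coordinate end of each gene. Dark bars are gene bodies, light lines the 100 kb on either side, and each circle is 1 peak, its area growing with the score and its colour giving the repeat named in the file (none can be named at promoter peaks). The 7 peaks of Pde4d lie past 688.5 kb, the largest circle is the Pde7b intron peak (score 257), and 4 genes carry none.

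By the list's own naming 4 of the 10 genes had a peak (Pde3a, Pde4b, Pde7a and Pde7b), where 9.11% of 21883 protein-coding genes did. By gene body and 100 kb on either side 6 of 10 had one, where 27.6% of those genes did. By the gene body alone 5 of 10 had one, against 5.36%. That share was not split by length, and 16939 of the 21883 genes are under 50 kb, where only 2 of the members are. The 2 shares are therefore not like for like. Long genes collect more peaks, and the members ran from 27.4 kb to 1302 kb. Among genes of 300 kb and over 42.6% had a peak in the window, and all 3 members of that length did (Pde4b, Pde4d and Pde7b). Among genes of 150 to 300 kb the share was 41.2%, and 1 of 2 members had one. It was 33.9% among genes of 50 to 150 kb, with 1 of 3 members, and 25.1% among shorter genes, with 1 of 2 members. Members were chosen with results of these data known, so no test was made of these counts.

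The 10 windows together span 5.04 Mb and held 16 peaks, 3.17 per Mb (exact 95% Poisson interval 1.81 to 5.15). The list held 1.23 per Mb between the outermost annotated genes of the chromosomes, and 1.46 per Mb of the windows of all protein-coding genes merged. Inside the member gene bodies the density was 4.28 per Mb (2.28 to 7.31), from 13 peaks, and in their flanks 1.5 (0.309 to 4.38), from 3. No density over the bodies or the flanks of all protein-coding genes was computed, so these values have no like background. Much of the members' density came from 1 gene. Without Pde4d, a choice made after its count was seen, 9 peaks in 3.54 Mb gave 2.54 per Mb (1.16 to 4.83), with an interval that includes both densities of the whole list.

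The scores of the 17 peaks ran from 19 to 257 with a median of 69 (quartiles 38 to 111), beside 65 (quartiles 41 to 104) for all 3317, and 9 of the 17 lay above 65. Only Pde7b's intron peak, Pde4b's promoter peak and the 3 Pde4d peaks named for Mir582 scored above the list's upper quartile of 104. Widths had a median of 440 bp (298 to 879), beside 393 bp for the list.

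**Figure D4:**
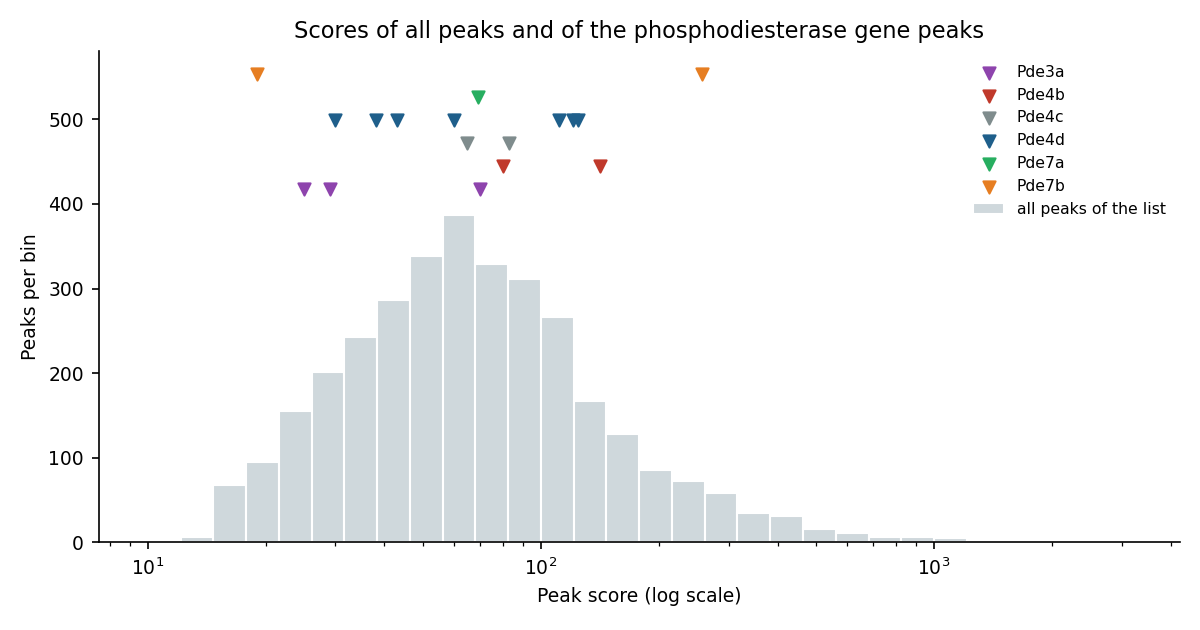
Scores of all 3317 peaks (grey bars, number of peaks per bin, log axis) and of the 17 peaks at phosphodiesterase genes (triangles, 1 row per gene). The triangles spread from 19 to 257 around the middle of the grey distribution, whose median is 65.

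Most of the sites were intronic and several lay on tandem repeats. Of the 17 peaks, 11 lay in introns (64.7%, beside 38.3% of the list), 3 at promoters, 2 between genes and 1 in a 5' UTR. A rule built on gene bodies favours introns by its form. Tandem repeats whose unit, read on either strand, is 1 G with 2 to 5 T were named at 4 of the 17 peaks (23.5%, beside 6.39% of the list), at Pde3a (1), Pde7b (1) and Pde4d (2), with scores of 25, 257, and 121 and 60. Across the list such peaks had a median score of 102 (212 peaks), beside 62 for the other 3105. The annotation cannot show a repeat at a promoter peak, and the Pde4b promoter sequence above holds the same kind of run although the file names none there.

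How peaks are named bears on which phosphodiesterase genes appear in the list. Of the 13 peaks inside a member gene, 9 were named for another gene, namely all 7 in Pde4d and both in Pde3a. Over the whole list 375 of 1434 peaks inside a protein-coding gene (26.2%, exact 95% binomial interval 23.9 to 28.5) were named for a gene other than the one around them. A reading by name alone would thus give Pde4d 0 peaks and Pde3a 1 distant peak.

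Other genes, most of them of the cyclic AMP pathway, were counted by the same rules over a list of 93 that does not hold the 10. The list also takes in genes of cyclic GMP signalling, such as Npr1, Pde5a, Pde6b and Pde9a, so its counts are not for cyclic AMP alone. Of these, Pde6b is among the genes named as nearest, and Npr1, Pde6b and Pde9a are among those with a peak in the window. The list named 13 of the 93 as nearest to a peak (14%, beside 9.11%), and 31 had a peak in the gene or within 100 kb (33.3%, beside 27.6%). By naming, a peak was assigned to 4 of 11 kinase anchors, 1 of 20 receptors, 1 of 5 G proteins, 0 of 10 adenylyl cyclases, 1 of 9 kinase subunits and inhibitors, 1 of 2 exchange factors, 1 of 7 other cyclic AMP sensors, 1 of 9 transcription factors and coactivators, 2 of 14 other phosphodiesterases and 1 of 6 regulators. By the gene and 100 kb around it the counts in the same order were 4, 5, 2, 4, 4, 2, 1, 2, 4 and 3, so the anchors and the cyclases, 4 against 0 by naming, each had 4. Those with the highest scores were led by Ptger2, a prostaglandin E2 receptor that raises cyclic AMP, whose peak scored 1519 at 63.8 kb from the start site on a (TTTG)n repeat. Creb5, a transcription factor of the CREB family, followed with 474 in intron 1. Akap6 (155, at 119 kb), Akap2 (96, at -86.9 kb) and Akap7 (87, at 27.2 kb) encode anchors of protein kinase A, and each of these peaks lay in an intron. Pde1a, a calmodulin-dependent phosphodiesterase, had a peak of 148 at -29.2 kb from the nearest start site. It lay inside the gene by its RefSeq position, though it is annotated as intergenic. Pkig, an inhibitor of protein kinase A, had a promoter peak, with 129 at -912 bp. Pde4b's promoter score of 141 and Pde7b's intronic score of 257 lay between the 87 of Akap7 and the 1519 of Ptger2. These genes were picked for their high scores, so that range is wide by choice and no result is drawn from it.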

How the data were processed

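The authors deposited 1 list of peaks for the ChIP library, which HOMER's annotatePeaks.pl had annotated on mm10, per the file headers. The submitters' processing notes name MACS2, Bowtie2, SAMtools, Picard and deepTools (3.3.0) but give them no roles. Caller settings and the use of the input are not given in the sources used here. The score deposited by the authors is a whole number of unstated scale. A score can mix enrichment with depth and width, so it only ranks peaks here. All 3317 peaks were used and 1 line without a peak was left out. Gene positions came from RefSeq (GRCm38.p6), where 2459 of 2462 nearest genes were found by gene number. A peak's position is its midpoint. Of 95 symbols in the pathway list, 94 were matched, 2 of them to the same gene. Python 3.11.15, pandas 2.3.3 and SciPy 1.17.1 were used, and the counting code was tested on simulated data. Intervals (95%) cover counting error only. Named genes were the 10 members, the genes named at their peaks and the 8 pathway genes with the highest scores, of which 1 is not reported here. Arhgap24, Lrmda, Prkg1 and the genes named at the nearest peaks outside the set (Slc44a2, Iqgap1, F2r and Rras2) fall outside that rule and were chosen after their values were seen. Members, lists and motifs were chosen with earlier results of these data known, and no hypothesis test was run. Alternatives varied the flank, score limit, overlap and naming distance.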

Additional observations from a re-analysis of the deposited data

How the results depend on the processing

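No paired analysis was possible because there is 1 ChIP library. Leaving out 12 values that the alternative could not change, 29 of 37 values stayed within 1.5 times the reported count or, for the density, within its interval. The set of 17 peaks fell to 10 with scores of at least the median, and to 10 without Pde4d, an alternative chosen after seeing the data. Members with a peak in the window ranged from 5 with no flank to 7 with 250 kb, and named members from 3 to 4. Of all protein-coding genes 5.36% had a peak with no flank and 27.6% with 100 kb, and the median distance to the nearest peak was 277 kb. Their share was not computed under the other alternatives, so the member and pathway counts there have no background beside them. The density ratio to the list, 2.59 (1.48 to 4.2), ranged from 2.07 without Pde4d to 3.48 with no flank. The list's density was taken over the whole span each time, so the ratio with no flank sets gene bodies against all sequence. Pathway genes named as nearest fell from 13 to 7 when peaks beyond 50 kb were left out. Pathway genes with a peak in the window fell from 31 to 9 with no flank, 13 with 20 kb and 19 with 50 kb and rose to 55 with 250 kb, windows that take in less or more sequence. They fell to 19 with scores of at least the median, which leaves fewer peaks. Read depth is unknown, so a gene without a peak is one where none was called.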
